A study of Mus musculus with 6 samples.

Results

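Peroxisomes are small organelles bounded by a single membrane that shorten very long and branched fatty acids, start the synthesis of ether lipids and break down the hydrogen peroxide that their oxidases make. They are built by the peroxins, encoded by Pex genes: some place proteins in the membrane, others bring finished enzymes into the interior, the matrix, and others govern division of the organelle. Fat cells gain peroxisomes as they mature, and many genes of peroxisomal fatty acid oxidation are known targets of the PPAR family of nuclear receptors. A list of 46 mouse genes of peroxisome biogenesis and metabolism was followed here by gene symbol, and all 46 were found among the 49671 genes of the count table. All 46 also passed the filter on low counts, as did 14946 genes in total. The list holds 13 peroxin genes, 23 genes of matrix enzymes, 3 genes of ether lipid synthesis and 7 genes of membrane proteins. It is a chosen list and not a full inventory of the organelle.

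The cells were preadipocytes from inguinal white fat of Tcf7l2 F/F mice of the strain C57BL/6, aged 3 months, sorted by CD34, Sca1 and CD29, immortalised with SV40 large T antigen and given the inducible recombinase CreERT2 by retrovirus. Control cells (3 libraries) received EtOH and Tcf7l2 knockout cells (3 libraries) received 4-hydroxytamoxifen, for 24 h at 2 days before differentiation was induced with dexamethasone, isobutylmethylxanthine and insulin. The labels give the genotype of the control libraries as wild type and that of the others as Tcf7l2 Knock out cells. Even so, all cells, controls included, carry the floxed allele, large T antigen and CreERT2, and were differentiated until day 8. The labels add 5 nM of an agent named W1929 to W1934, a different number for each library, so that agent and group cannot be told apart if the numbers are meant as written. Deletion and exposure to 4-hydroxytamoxifen also coincide, and the labels do not say whether libraries of a group are separate cultures, so the spread behind every p-value here is that between libraries and may be technical only.

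Levels are given in CPM, a gene's counts relative to the scaled total of its library. Library totals ran from 26621293 to 33484764 counts, and each library held from 78117 to 99260 (control) or 102369 to 114439 (knockout) counts of the 46 genes. Tcf7l2 was at 7.65 ± 1.49 CPM (SD, n = 3) in the control libraries and 6.12 ± 0.638 CPM (SD, n = 3) in the knockout libraries, with an edgeR adjusted p = 0.125. Since the counts cover the entire gene and not only its floxed part, this value does not check the labels. Control replicate 3 and knockout replicate 2 stood apart from the other 4 libraries on the second principal component (-9.98 and -12.5, against 3.98 to 10.2). Without both of them, 34 of the 46 genes were called higher and 1 lower, against 32 and 1 with all libraries. Of 13 adipocyte marker genes, all were detected in every library and 12 rose, against 11.9% of all tested genes. Of the leukocyte markers, Adgre1 and Cd3e had 0 counts in every library and Ptprc at most 2, while Cd68 had 31 to 64. Of the endothelial markers, Cdh5 had at most 1 count and Pecam1 at most 6, while Tek had 251 to 318 and was not called, and Kdr had 354 to 540 and was 1.30-fold higher in knockout cells (edgeR adjusted p = 0.00363).

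Peroxisome genes were mostly higher in knockout cells, by modest steps. Of the 46, 32 rose, 1 fell and 13 were not called, where a call is a Benjamini-Hochberg adjusted p under 0.05 in edgeR's quasi-likelihood test over all genes. Over all tested genes, 22.4% were called, 11.9% as higher and 10.5% as lower. The median log2 fold change of the 46 was 0.32, which is 1.25-fold, against -0.0017 over all tested genes, and 10 of the 46 differed by more than 1.5-fold. The knockout libraries lay above all control libraries for 32 of the 46 genes and below all of them for 2, against 18.5% and 19.3% of all tested genes. The largest rises were in enzymes of the matrix (Acox2, Ddo, Nudt7, Ehhadh), and the fall was in Agps, an enzyme of ether lipid synthesis.

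**Figure D1:**
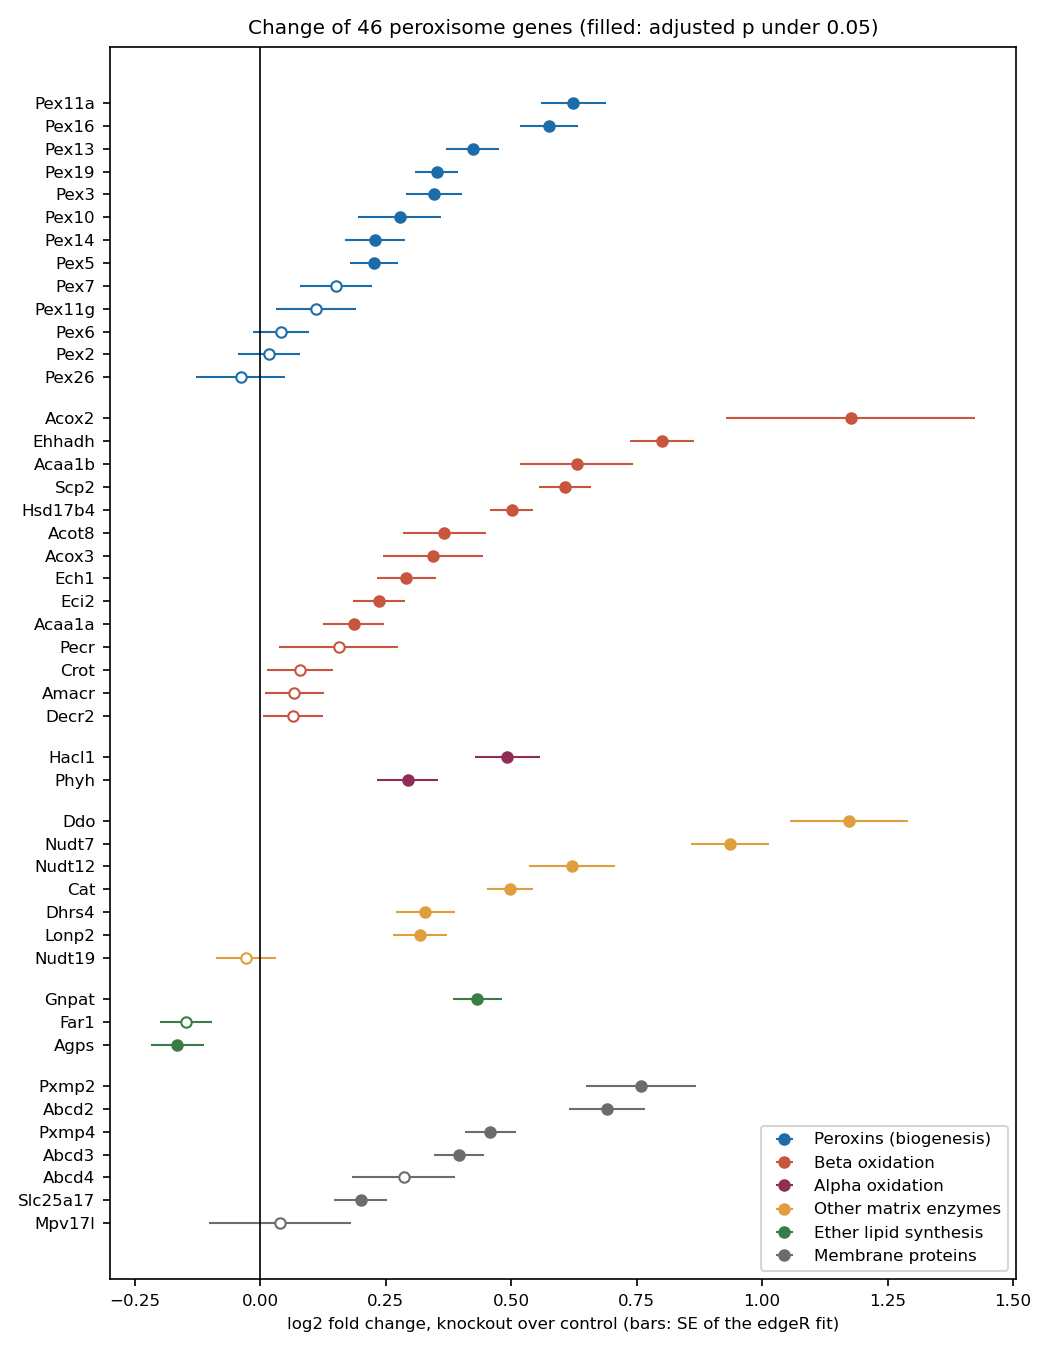
Log2 fold change of knockout over control (x axis) for each of the 46 genes, grouped by role, with the SE of the edgeR fit as bars and filled points for genes with an adjusted p under 0.05. Most points lie right of 0; Agps at -0.17 is the 1 filled point to its left.

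Levels differed widely among the 46 genes. Scaled to exon length, the catalase gene Cat was the most abundant in control cells at 103 CPM per kb, followed by Ech1 at 74.1, Pex19 at 57.2 and Hsd17b4 at 52.9 CPM per kb. At the other end were Acox2 at 0.14, Ddo at 0.403, Mpv17l at 1.03 and Abcd4 at 1.35 CPM per kb. The pair of genes with the largest fold changes, Acox2 and Ddo, were thus also the least abundant, while Cat and Hsd17b4 combined high levels with log2 fold changes of 0.50 each.

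**Figure D2:**
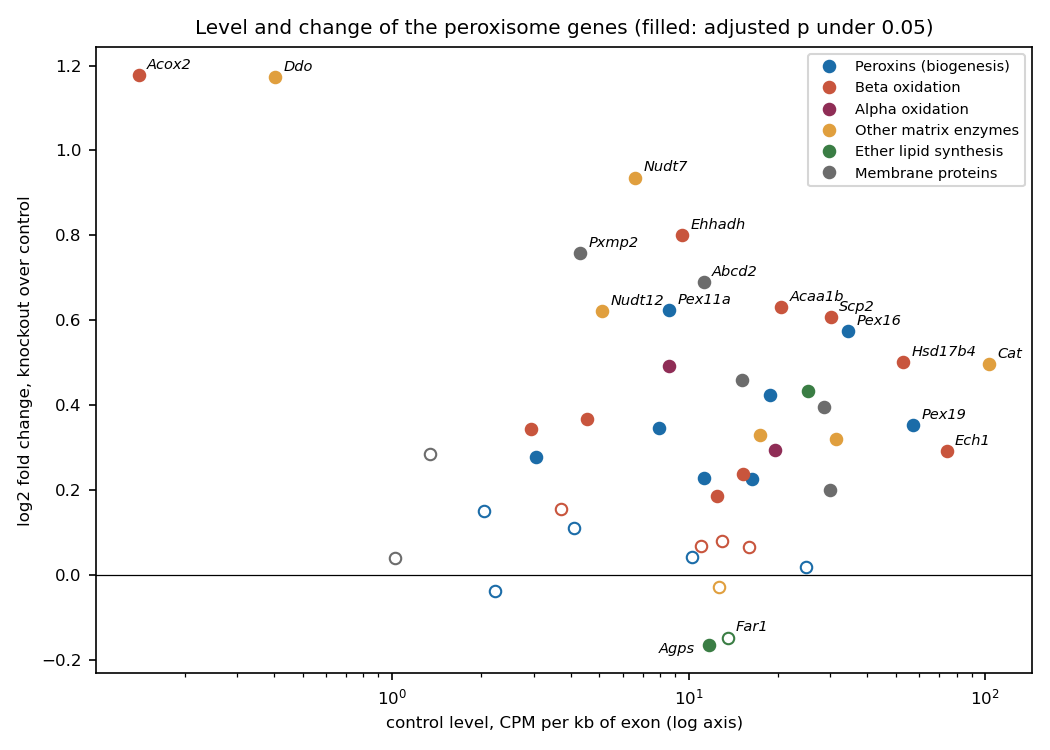
Control level in CPM per kb of exon (x axis, log scale) against log2 fold change (y axis) for the 46 genes, coloured by role, filled where the adjusted p was under 0.05. Acox2 and Ddo sit at the upper left, low and most changed, and Cat at the far right at 0.50.

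Promoter sequences are shown for the only searched members with a near match to the repeat that PPAR bind with their partner RXR. The search covered 250 bases before to 50 bases after each start site (RefSeq, GRCm38.p6) for 2 copies of AGGTCA in the same direction with 1 base between them, on either strand, with at most 2 mismatches over both copies. Promoters were at hand for 37 of the 46 genes. A match was found for 2 of the 37 (5.41%), Cat and Acox2, and for 1190 of 27025 genes overall (4.4%). Capitals mark the match. In Cat (chr2:103485104-103485403, minus strand) it begins 204 bases before the start site, and in Acox2 (chr14:8258790-8259089, minus strand, one of 2 listed promoters of this gene) it begins 9 bases after it. Both have 2 mismatches. The other listed promoter of Acox2 held no match, and the annotated gene begins upstream of both windows, at 8259353.
Cat: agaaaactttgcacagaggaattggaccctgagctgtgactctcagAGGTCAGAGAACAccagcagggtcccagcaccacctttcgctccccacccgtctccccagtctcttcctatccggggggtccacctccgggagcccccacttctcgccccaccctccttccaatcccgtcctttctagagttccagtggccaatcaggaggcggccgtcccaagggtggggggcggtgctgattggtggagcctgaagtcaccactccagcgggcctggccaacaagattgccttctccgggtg
Acox2: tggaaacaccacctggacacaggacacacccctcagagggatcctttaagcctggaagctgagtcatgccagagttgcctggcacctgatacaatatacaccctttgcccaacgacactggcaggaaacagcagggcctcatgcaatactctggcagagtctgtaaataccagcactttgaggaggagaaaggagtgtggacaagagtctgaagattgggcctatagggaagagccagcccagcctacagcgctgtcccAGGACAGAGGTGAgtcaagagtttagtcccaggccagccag

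A match of letters is not a binding site, and its absence from the other promoters says only that these letters are not in this short window.

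Among the peroxins, genes that place proteins in the peroxisomal membrane were higher as a trio. Of the 13 peroxin genes 8 rose and 5 were not called, with a median log2 fold change of 0.23. None of the 13 was called lower by edgeR, DESeq2 or limma-voom, and 0 were lower at an unadjusted p under 0.05. Pex19, the soluble chaperone that carries membrane proteins, was at 220, 215 and 218 CPM in the control and 281, 275 and 279 CPM in the knockout libraries. All knockout libraries lay above all controls, 1.28-fold on average (log2 fold change 0.35, SE 0.043; edgeR adjusted p = 5.42e-05). Pex16, which serves membrane protein insertion at the endoplasmic reticulum and the peroxisome, was at 60.1, 58.3 and 64.8 CPM and at 86.7, 89.5 and 96.7 CPM (1.49-fold, edgeR adjusted p = 1.09e-05). Pex3, the membrane dock for Pex19, rose 1.27-fold (37.6 ± 1.2 to 47.9 ± 1.78 CPM; SD, n = 3 each).

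Of the genes of matrix protein import some were called higher and others were not called. Differences between these genes were not tested. Pex13, a subunit of the docking complex in the membrane, was at 88.2, 88 and 85.6 CPM in the control and 123, 109 and 119 CPM in the knockout libraries, 1.34-fold higher (edgeR adjusted p = 6.43e-05). The knockout libraries differed more among themselves than the controls, with replicate 2 lowest, but did not overlap them. Pex14, its docking partner, rose 1.17-fold from 70.6 ± 2.67 to 82.7 ± 6.41 CPM. Pex5, the receptor for the common C-terminal targeting signal, rose 1.17-fold, with a log2 fold change of 0.23 (SE 0.047). Pex7, the receptor for the rarer N-terminal signal, missed the threshold at a log2 fold change of 0.15 (SE 0.072; edgeR adjusted p = 0.159). Of the ubiquitin ligase genes that act on the receptor, Pex10 rose 1.21-fold at a low level (10.1 ± 0.561 to 12.2 ± 0.285 CPM), and Pex2 was at 56.6 ± 2.04 and 57.3 ± 4.56 CPM, not called. The ATPase gene Pex6 (log2 fold change 0.04, SE 0.056) and the gene of its membrane anchor, Pex26 (-0.04, SE 0.088), were not called either.

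The largest rise among the peroxins was in a gene of peroxisome division and proliferation. Pex11a (ENSMUSG00000030545, GRCm38 chromosome 7, 79735957 to 79743131, minus strand) was at 25.5, 27.6 and 28.8 CPM in the control and 41.5, 40.4 and 44.2 CPM in the knockout libraries. The groups were well apart, 1.54-fold (log2 fold change 0.62, SE 0.064; edgeR adjusted p = 1.3e-05). Its relative Pex11g, at 13.9 ± 0.696 against 15.1 ± 0.894 CPM, missed the threshold. Pex11g shares 41.1% and Pex14 28.3% of exonic bases with a gene on the opposite strand (Gm44775 and Gm17029) that was below 1 CPM. Whether Pex11a changed more than Pex11g was not tested.

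Some peroxin calls changed with the libraries or the method used. Leaving out control replicate 1 (edgeR adjusted p = 0.0773), control replicate 2 (0.124) or knockout replicate 3 (0.101) ended the call of Pex10, as did the use of DESeq2 (0.0581). The call of Pex14 ended when control replicate 1 (edgeR adjusted p = 0.0507) or 2 (0.0888) was left out. Pex7 was called higher without knockout replicate 2 (edgeR adjusted p = 0.0243).

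**Figure D3:**
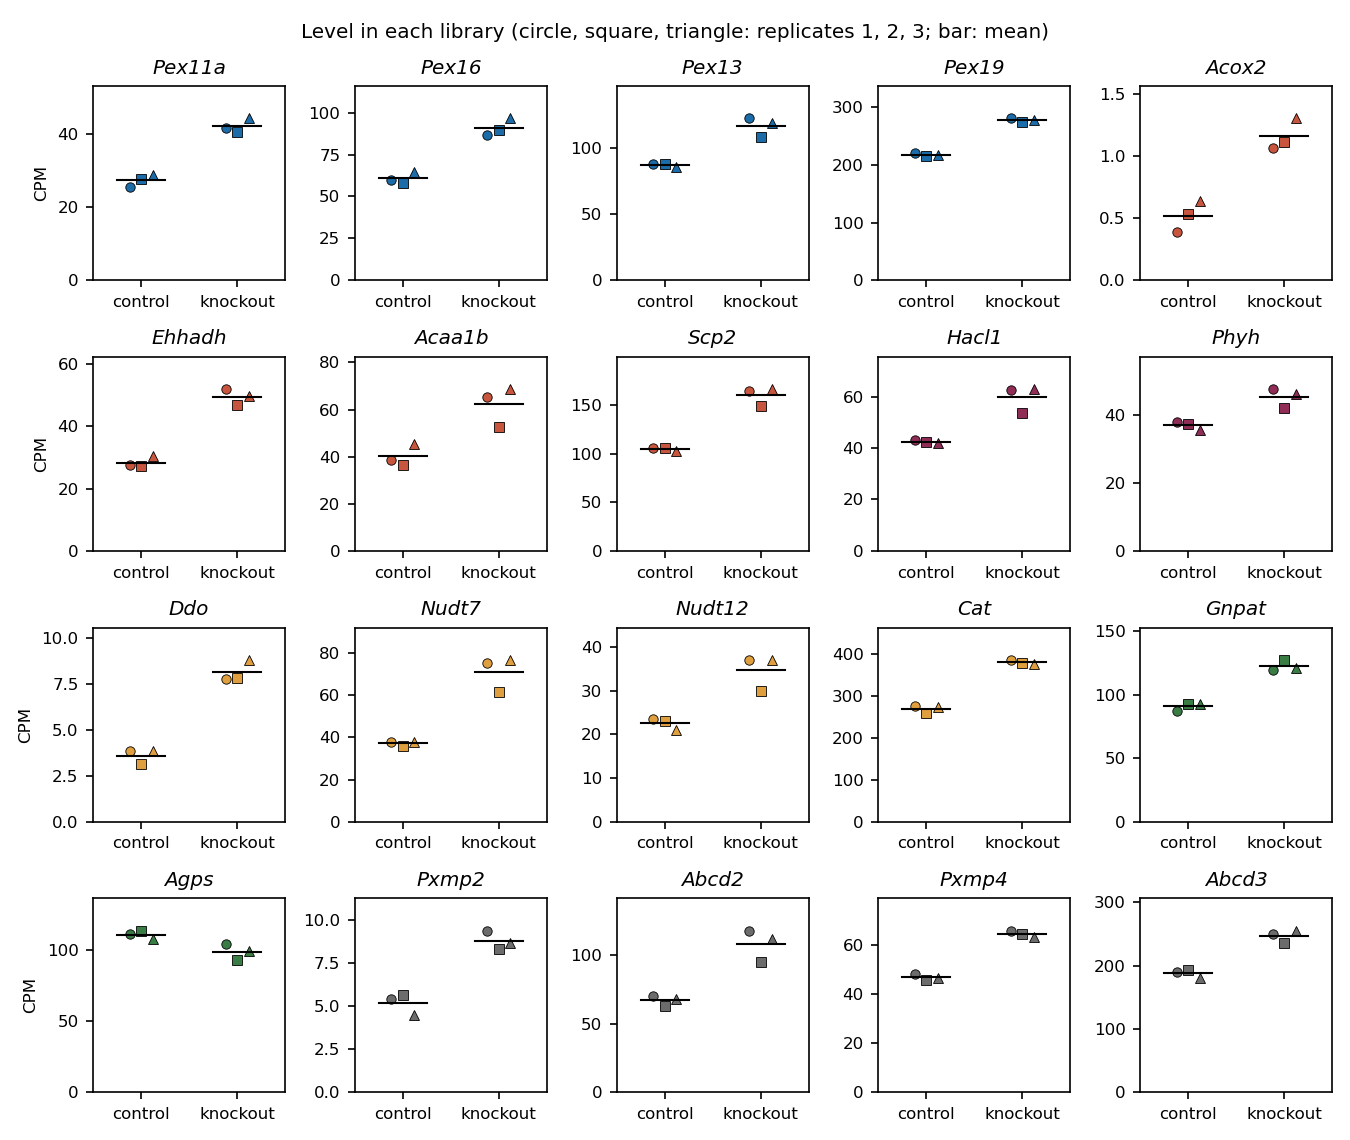
CPM (y axis, from 0) in each library for the members with the largest called change of each role, with circle, square and triangle for replicates 1, 2 and 3 and a bar for the group mean. Groups do not overlap in any of the panels, and Agps is the one panel with the knockout libraries below.

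Of 14 matrix enzyme genes grouped here under beta oxidation, the stepwise shortening of fatty acids, 10 rose and 4 were not called (median log2 fold change 0.32). Ehhadh (ENSMUSG00000022853, GRCm38 chromosome 16, 21761287 to 21787807, minus strand), the bifunctional enzyme of the middle steps, was at 27.4, 27.3 and 30.3 CPM in the control and 51.9, 46.7 and 49.5 CPM in the knockout libraries. It was 1.74-fold higher (log2 fold change 0.80, SE 0.064; edgeR adjusted p = 1.86e-06), with all knockout libraries far above the controls. Hsd17b4, the second bifunctional enzyme, which handles branched and very long chains, rose 1.42-fold from 180 ± 1.59 to 255 ± 2.5 CPM (SD, n = 3 each). Scp2, whose products include a thiolase of the last step and a sterol carrier protein, was at 106, 106 and 103 CPM and at 165, 149 and 166 CPM (1.52-fold, edgeR adjusted p = 2.81e-06).

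Among the oxidases of the first step, Acox2, which acts on branched chains and bile acid precursors, had the largest fold change of the list at a very low level. It was at 0.387, 0.531 and 0.64 CPM in the control and 1.07, 1.11 and 1.31 CPM in the knockout libraries, from 13 to 17 and 32 to 35 counts. The groups did not overlap and the change was 2.26-fold (log2 fold change 1.18, SE 0.25; edgeR adjusted p = 0.0037). Acox3, another oxidase of branched chains, rose 1.27-fold although its groups overlapped (30.6 to 38.5 against 37.5 to 46.9 CPM).

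The thiolase genes Acaa1a and Acaa1b, which split off acetyl-CoA in the last step, are close paralogs, and how reads shared between them were counted is not stated in the labels. Acaa1b was at 38.7, 36.5 and 45.3 CPM in the control and 65.2, 52.7 and 68.7 CPM in the knockout libraries (1.55-fold, edgeR adjusted p = 0.00454). Acaa1a was at 54.9 ± 2.94 and 62.3 ± 4.21 CPM (1.14-fold, edgeR adjusted p = 0.0444). The sum over both does not depend on how shared reads were split between them, but lacks such reads if they were not counted. This sum was 91, 90.7 and 103 CPM in the control and 126, 120 and 128 CPM in the knockout libraries, 1.31-fold higher with no overlap.

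Of the other 7 beta oxidation genes, 3 rose. The thioesterase gene Acot8 rose 1.29-fold, the dienoyl-CoA isomerase gene Ech1 1.22-fold and the enoyl-CoA isomerase gene Eci2 1.18-fold. The racemase gene Amacr, which prepares branched chains for oxidation, missed the threshold at 28.8 ± 0.754 against 30.1 ± 0.674 CPM. The same held for Crot, which makes carnitine esters for export (70.7 ± 3.63 and 74.7 ± 6.73 CPM), for the dienoyl-CoA reductase gene Decr2 (42.5 ± 0.81 and 44.5 ± 2.85 CPM) and for the enoyl-CoA reductase gene Pecr (5.63 ± 0.734 and 6.25 ± 0.473 CPM). Acot8 shares 12.3% of its exonic bases with Snx21 on the opposite strand, which had mean levels of 32.7 and 31.6 CPM, above those of Acot8 itself at 9.07 and 11.7 CPM.

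The weaker calls of this group depended on the libraries used. The call of Acaa1a ended on leaving out control replicate 1 (edgeR adjusted p = 0.203), control replicate 2 (0.145), knockout replicate 1 (0.0525), 2 (0.113) or 3 (0.0538). It also ended with DESeq2 (adjusted p = 0.0544), with limma-voom (0.0508) and under total count scaling in edgeR (0.05). That of Acox3 ended on leaving out control replicate 1 (edgeR adjusted p = 0.139), control replicate 2 (0.129), knockout replicate 2 (0.109) or knockout replicate 3 (0.107). Crot was called higher once knockout replicate 2 was left out (edgeR adjusted p = 0.048).

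Both genes of alpha oxidation, which removes a single carbon from branched fatty acids such as phytanic acid, rose. Hacl1, the lyase of the pathway, was at 43, 42.3 and 42 CPM in the control and 62.7, 53.6 and 62.9 CPM in the knockout libraries (1.41-fold, edgeR adjusted p = 0.000102). Phyh, the hydroxylase of its first step, was at 37.9, 37.5 and 35.6 CPM and at 47.7, 42.2 and 46.3 CPM (1.23-fold, edgeR adjusted p = 0.00351). In both genes knockout replicate 2 was the lowest knockout library and still above all controls. Hacl1 shares 31.1% of its exonic bases with Gm49387 on the same strand, for which the table has no row.

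Of the 7 other matrix enzymes 6 rose, with a median log2 fold change of 0.50. Ddo, which oxidises D-aspartate, was at 3.84, 3.12 and 3.84 CPM in the control and 7.79, 7.84 and 8.81 CPM in the knockout libraries, 2.25-fold higher (log2 fold change 1.17, SE 0.12; edgeR adjusted p = 1.04e-05). Nudt7, a hydrolase of coenzyme A, was at 37.7, 35.9 and 38 CPM and at 75.1, 61.6 and 76.8 CPM, 1.91-fold higher (edgeR adjusted p = 3.77e-06). Its knockout libraries spread from 61.6 to 76.8 CPM, more widely than the controls, and the groups did not overlap.

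The NADH hydrolase gene Nudt12 was at 23.6, 23 and 21.1 CPM in the control and 37.1, 30 and 37.1 CPM in the knockout libraries (1.54-fold, edgeR adjusted p = 0.000169). Nudt19, another coenzyme A hydrolase, missed the threshold, with 34 ± 1.64 and 33.4 ± 0.887 CPM and a fitted log2 change of -0.03 (SE 0.06). Cat, the enzyme that breaks down hydrogen peroxide, was at 276, 260 and 273 CPM and at 387, 379 and 376 CPM. It was 1.41-fold higher (log2 fold change 0.50, SE 0.046; edgeR adjusted p = 5.2e-06), with every library of a group within a narrow range. The carbonyl reductase gene Dhrs4 rose 1.26-fold and the protease gene Lonp2, which clears damaged matrix proteins, 1.25-fold. Nudt19 shares 35% of its exonic bases with B230322F03Rik on the opposite strand, which was below 1 CPM in both groups.

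Ether lipid synthesis was the group whose genes went different ways. Gnpat (ENSMUSG00000031985, GRCm38 chromosome 8, 124863033 to 124890057, plus strand), the acyltransferase that starts the pathway on dihydroxyacetone phosphate, was at 87.3, 92.6 and 92.9 CPM in the control and 119, 127 and 121 CPM in the knockout libraries, 1.35-fold higher (edgeR adjusted p = 2.72e-05). Agps (ENSMUSG00000042410, GRCm38 chromosome 2, 75832177 to 75931350, plus strand), the next enzyme, which exchanges the acyl group for an alkyl group, was at 111, 113 and 107 CPM and at 104, 92.6 and 99.1 CPM. All its knockout libraries were below all controls, by 1.12-fold (log2 fold change -0.17, SE 0.052; edgeR adjusted p = 0.0361). Far1, the reductase that supplies the fatty alcohol for that exchange, was at 109 ± 1.17 and 98.5 ± 5.86 CPM. Its groups did not overlap either, but the difference missed the threshold (a log2 change of -0.15, SE 0.052; edgeR adjusted p = 0.0551). The call of Agps ended on leaving out control replicate 1 (edgeR adjusted p = 0.104), control replicate 2 (0.11), knockout replicate 2 (0.0798) or knockout replicate 3 (0.102), and with DESeq2 (0.0573). Far1 was called lower without knockout replicate 1 (edgeR adjusted p = 0.0464) and with total count scaling (0.0447).

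Of the 7 genes of membrane proteins 5 rose, with a median log2 fold change of 0.40. Abcd2, a transporter that imports very long chain acyl-CoA, was at 69.8, 62.5 and 68.1 CPM in the control and 117, 94.8 and 111 CPM in the knockout libraries, 1.61-fold higher (edgeR adjusted p = 5.04e-05). Abcd3, the related transporter of branched acyl-CoA and bile acid precursors, was at 190, 193 and 180 CPM and at 251, 236 and 255 CPM (1.32-fold, edgeR adjusted p = 5.95e-05). Knockout replicate 2 was again the lowest knockout library of both, and above every control. Abcd4, which despite its family name acts in lysosomal cobalamin transport, missed the threshold, with 10.8 ± 1.34 against 13.1 ± 1.1 CPM (edgeR adjusted p = 0.0642).

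Pxmp2, a channel-forming protein of the membrane, was at 5.39, 5.63 and 4.48 CPM in the control and 9.36, 8.28 and 8.66 CPM in the knockout libraries (1.69-fold, edgeR adjusted p = 0.00022). Pxmp4, another membrane protein, was at 48.4, 46.1 and 46.8 CPM and at 66, 64.7 and 63.4 CPM (1.37-fold, edgeR adjusted p = 2.09e-05). Neither gene showed overlap between the groups. Slc25a17, a carrier of cofactors such as coenzyme A, rose 1.15-fold, and Mpv17l was at 3.86 ± 0.57 and 4 ± 0.437 CPM, not called. The call of Slc25a17 ended on leaving out knockout replicate 3 (edgeR adjusted p = 0.0984) or control replicate 1 (0.0737). Abcd4 was called higher without control replicate 3 (edgeR adjusted p = 0.0336), without knockout replicate 1 (0.0332) and without a filter on low counts (0.0185).

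Set side by side, matrix enzymes had a larger median change than peroxins. Of the 23 matrix enzyme genes 18 rose and 5 were not called (78.3%), against 8 of 13 peroxin genes (61.5%), where 11.9% of all tested genes rose. None of the 23 was called lower by edgeR, DESeq2 or limma-voom, nor lower at an unadjusted p under 0.05. The median log2 fold change was 0.34 for matrix enzymes, with an interquartile range of 0.21 to 0.61, and 0.23 for peroxins, with an interquartile range of 0.11 to 0.35. More than 1.5-fold differences were found for 7 of the 23 and 1 of the 13. Averaged over the genes of a group on the log2 scale, the difference between knockout and control libraries was 0.41 for matrix enzymes and 0.25 for peroxins. The SD between libraries of these averages was 0.031 (control) and 0.055 (knockout) for matrix enzymes and 0.013 and 0.029 for peroxins (n = 3 each). The changes of single genes overlap widely between the groups, and the difference between the lists was not tested, since their members were chosen.

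**Figure D4:**
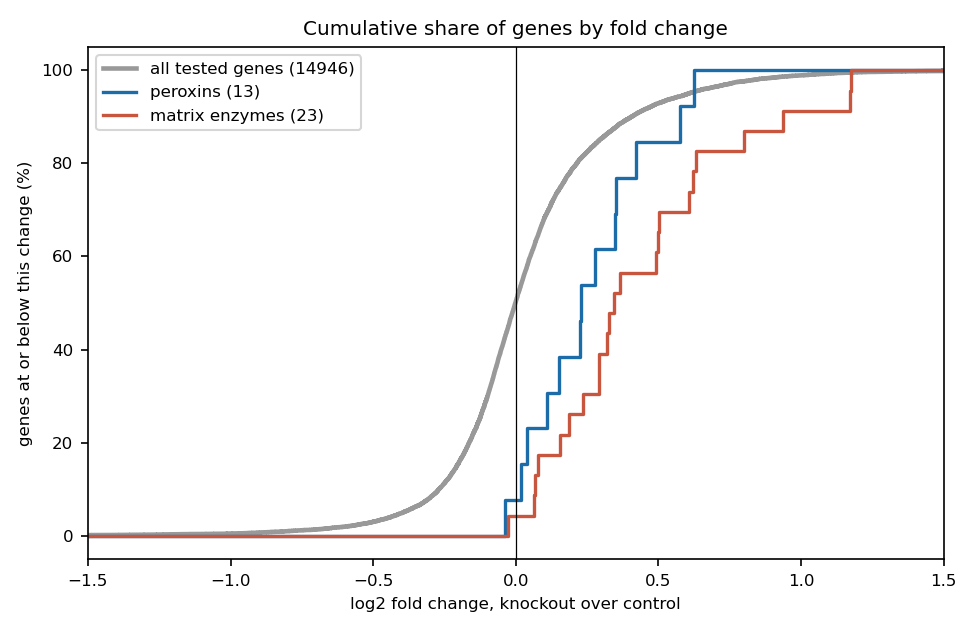
Cumulative share of genes (y axis, percent) at or below each log2 fold change (x axis) for peroxins, matrix enzymes and all tested genes. Over most of their range both peroxisome curves lie to the right of the curve for all genes, with medians of 0.23 (peroxins), 0.34 (matrix enzymes) and -0.0017 (all).

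Of 27 tested peroxisome genes outside the 46, 11 rose and 2 fell, where 11.9% of all tested genes rose and 10.5% fell. Of 12 listed genes of division, tethering and import, 11 were tested, of which 4 rose, 2 fell and 5 were not called. Acbd4 and Acbd5, tethers of peroxisomes to the endoplasmic reticulum, rose 1.53-fold and 1.21-fold, and Tmem135 rose 1.35-fold. The fission adaptor gene Fis1, shared with mitochondria, fell 1.11-fold, and Trim37, a ubiquitin ligase gene linked to peroxisomal import, fell 1.17-fold (63.9 ± 2.59 to 54.7 ± 0.439 CPM; edgeR adjusted p = 0.00599). The call of Fis1 ended on leaving out control replicate 1 (edgeR adjusted p = 0.149), control replicate 2 (0.0699), knockout replicate 3 (0.149) or the filter on low counts (0.0619), and with DESeq2 (0.0647). Of 25 listed genes of metabolism, 16 were tested, of which 7 rose, 0 fell and 9 were not called. At an unadjusted p under 0.05 in edgeR, 11 of these 16 were higher and 0 lower, against 2590 and 2506 of all 14946 tested genes. Among the 11 tested genes of division, tethering and import, 6 were higher and 2 lower at that threshold. Of the 7 metabolism genes that rose, the epoxide hydrolase gene Ephx2 was 1.59-fold and the acyl-CoA dehydrogenase gene Acad11 1.44-fold higher.

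Markers of mature adipocytes and genes of mitochondrial fatty acid oxidation were higher in the same libraries. The 13 adipocyte markers summed to 9698 to 10005 CPM in control and 13331 to 15806 CPM in knockout libraries, and 12 rose, with a median log2 fold change of 0.75. Of 18 mitochondrial fatty acid oxidation genes 17 rose, with a median of 0.52, and the one not called was Cpt1a. Over all tested genes 11.9% rose. Both medians were above that of the 46 peroxisome genes (0.32). The 10 progenitor and fibroblast markers summed to 4142 to 4589 CPM in control and 4076 to 4740 CPM in knockout libraries. Of these 10, 1 fell (Thy1), which is near the share of all tested genes that fell (10.5%). Knockout libraries lay above all controls for 1 of the 10 and below all of them for 3, against 18.5% and 19.3% of all tested genes. The 1 above was Ly6a, at 671 ± 115 and 918 ± 86.1 CPM (SD, n = 3 each), not called (edgeR adjusted p = 0.0539). Pdgfra (1247 and 1135 CPM) and Itgb1 (1111 and 1031 CPM) lay below with Thy1 and were not called. The 5 endothelial markers summed to 23.4 to 25.1 CPM and 26.7 to 28.1 CPM, mostly from Kdr and Tek, and the 6 leukocyte markers to 1.24 to 1.64 CPM and 1.57 to 2.07 CPM. In bulk RNA, a larger share of mature adipocytes and more peroxisomal RNA in each of them cannot be told apart, and the part of adipocyte content in the peroxisome result was not tested.

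**Figure D5:**
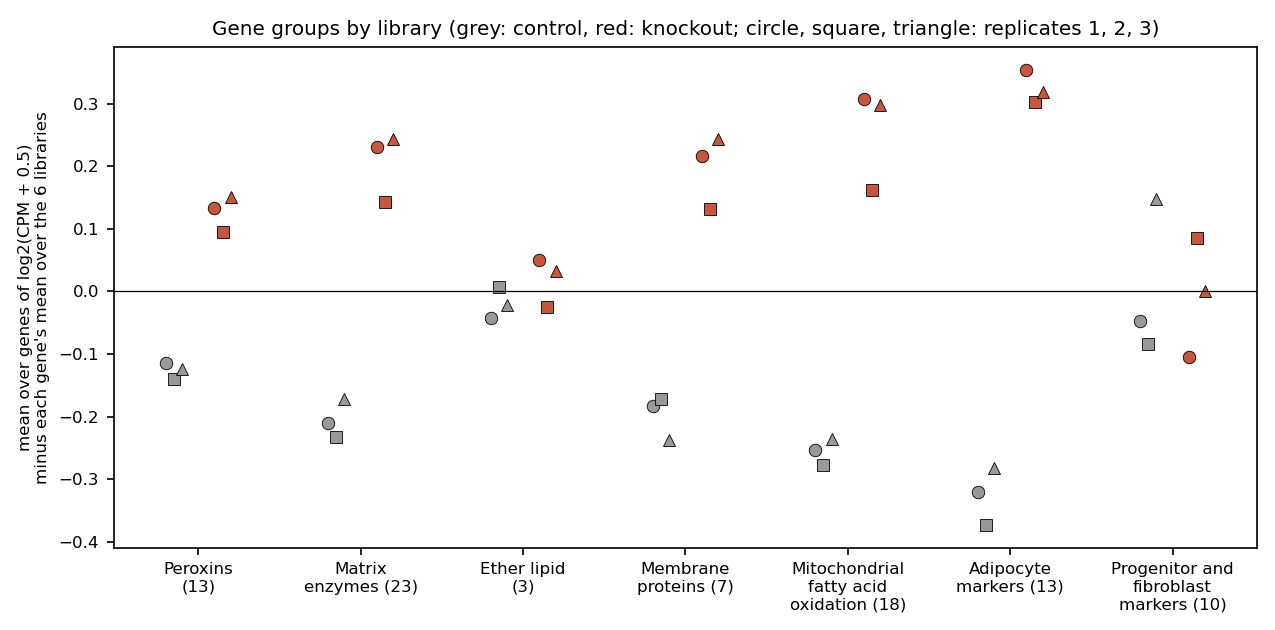
Mean over the genes of each group of log2(CPM + 0.5), after subtracting each gene's mean over the 6 libraries (y axis), for each library (grey control, red knockout). Knockout libraries lie above controls for peroxins, matrix enzymes, membrane proteins, mitochondrial oxidation and adipocyte markers, and overlap them for ether lipid genes and progenitor markers.

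Knockout replicate 2 tended to be the lowest of its group. It was the lowest knockout library for 21 of the 32 genes that rose, against 7 for replicate 1 and 4 for replicate 3. The same count over all tested genes is not given here, so this is not shown to be particular to peroxisome genes. It was also the knockout library with the lowest sum of adipocyte markers (13331 CPM) and the highest sum of progenitor and fibroblast markers (4740 CPM). Single genes weighed heavily in these sums. In knockout replicates 1, 2 and 3, Fabp4 was at 7613, 5951 and 7043 CPM and Col1a1 at 463, 1097 and 575 CPM. Other markers went the other way: Plin1, Lipe, Pnpla2, Retn and Cebpa were highest in replicate 2, and Cd34, Itgb1, Pdgfra and Dpp4 lowest. Without knockout replicate 2, 32 of the 46 genes were called higher.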

How the data were processed

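Raw read counts per Ensembl gene were taken as deposited (1 column per library, matched by title; 0 other columns of sample values). Build GRCm38 and the tools DESeq2 1.16.0, featureCounts 1.5.1 and STAR 2.5.2b appear, without their roles, in the submitters' processing notes. For annotation release, strand setting and multi-mapping reads, the handling is not given in the sources used here. Libraries came from rRNA-depleted total RNA with a stranded kit, per the labels' protocols. Symbols were matched for 49326 of 49671 identifiers. Exon lengths and overlaps are from GENCODE M21 (GRCm38).

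Groups were compared with edgeR 4.0.16 in R 4.3.3 (TMM, filterByExpr, robust quasi-likelihood F-test, group only). CPM use TMM-scaled library sizes; the SE is the log2 fold change over the square root of F. The members and lists were chosen with earlier results of these data known. Every member is named. Library values are given for up to 4 called members per direction and role with the largest change, and up to 3 called genes per direction are named from each list of other peroxisome genes. Alternatives were other scalings and filters, DESeq2 1.42.0, limma-voom (limma 3.58.1), a threshold of 0.01 and left-out libraries. Protein sequences were not used here. Some genes of the lists of other peroxisome genes are counted but not reported by name here.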

Additional observations from a re-analysis of the deposited data

How the results depend on the processing

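Of the 33 called genes, 27 were called in all 14 alternatives that kept the threshold of 0.05, 6 lost the call in at least 1 of them, and 0 changed sign; 4 uncalled genes gained a call in at least 1. With 1 library left out, the number of the 46 called higher ran from 27 to 33 and the number called lower from 0 to 2. The number called lower was 2 with total count scaling, 0 by DESeq2 and 0 at an adjusted p under 0.01, so the single fall (Agps) rests on a narrow margin. Leave-one-out medians ran from 0.23 to 0.27 for peroxins and from 0.32 to 0.37 for matrix enzymes. Uncalled genes near 0 changed sign with libraries left out: Pex2 ran from -0.031 to 0.081 on the log2 scale (-0.016 without control replicate 3, -0.031 without knockout replicate 1), Pex26 from -0.12 to 0.018, Nudt19 from -0.061 to 0.012 and Mpv17l from -0.077 to 0.11 (-0.077 without control replicate 3, -0.047 without knockout replicate 3, -0.0068 without control replicate 3 and knockout replicate 2). The cause was not tested. No scaling moved the median of all genes by more than 0.0080. No paired analysis was possible because the 2 groups share no replicate number in the labels. The replicate numbers used here follow the order of the library titles within each group and pair no libraries across groups. Depth limits Acox2, at 13 to 35 counts a library.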
